A study of Mus musculus with 4 samples.

Results

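Of 14331 autosomal regions of open chromatin that had a peak in all 4 libraries of the paraventricular nucleus of the hypothalamus (PVH), 2074 lay at least 10 kb outside every protein-coding gene body and are called shared distal regions here. Peaks from any library that overlapped by 1 bp or more were joined on chromosomes 1 to 19 of the mm10 build, which gave 65969 merged regions in all. ATAC-seq, which marks open chromatin by letting a transposase place sequencing adapters into accessible DNA, was the assay. All mice were 12 weeks old and carried the Otp fl/fl; Ai14 alleles, that is, loxP-flanked Otp and a Cre-dependent fluorescent reporter. As adults they received an adeno-associated virus (AAV), and tissue was taken 4 weeks later. The 2 control libraries were from animals with AAV-GFP and the 2 knockout libraries from animals with AAV-Cre. Cre deletes Otp in the infected cells, and the OTP protein is a homeodomain factor needed for neuroendocrine neurons. Nuclei of the dissected tissue were used, and no selection of infected cells is described. The labels give no sex and no number of animals in a library, and they do not say that each library is another animal, so differences within a group may be technical.

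Open chromatin far from genes is where many enhancers lie, short elements bound by transcription factors that can act on a gene over a long stretch of DNA. Distal open regions tend to be more specific to a cell type than promoters, which are open in most cells. The same distance class also holds promoters of long noncoding RNAs (lncRNAs), genes of small RNAs and repeated DNA. The gene nearest to a distal region names its position and is not shown to be its target.

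The values behind a region were the authors' fold enrichment at the peak summit over background and their −log10 p, each taken from the strongest peak of a library in the region. They were used to rank regions within a library. Median fold over all shared regions was 8.94 and 7.98 in the AAV-GFP libraries and 6.55 and 6.85 in the AAV-Cre libraries. A lower raw fold after AAV-Cre is therefore not by itself a change in rank. A rank percentile was computed among the 14331 shared regions, with 100 the strongest, by −log10 p unless fold is named. The shift of a region is its mean rank in the 2 AAV-Cre libraries minus its mean rank in the 2 AAV-GFP libraries. A region was called weaker when both AAV-Cre ranks lay below both AAV-GFP ranks, and stronger in the converse case. With 2 libraries against 2, the smallest p of a 2-sided exact permutation test is 0.333, so no single region can pass a threshold. The lists held 57682 and 34100 peaks in the AAV-GFP libraries and 23384 and 26612 in the AAV-Cre libraries. Sequencing depth is unknown. Since a peak in every library was required, the members hold no region gained or lost outright. In this bulk tissue, fewer cells with a site open and less opening in each cell cannot be told apart. Of all autosomal protein-coding genes, 42.8% had a shared region within 1 kb of a gene end. As a check of the tissue, 9 of 44 transcription factor genes of the PVH lineage and its neighbours (20.5%) had one. Pou3f2 was among them and Otp and Sim1 were not. Of 20 PVH neuropeptide and hormone genes, 4 (20%) had one, namely Ghrh, Nppc, Scg2 and Vgf. Both shares lay below that of all coding genes. Of 20 melanocortin and energy balance genes, 10 (50%) had such a region, Mc4r included. These are sites of open chromatin and not measures of expression.

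Some shared distal regions coincided with promoters of noncoding genes, and 5 of these sequences are printed because they differ in strength, group difference and base composition. They were picked after their values were seen. In strength and group difference they do not reach the ends of the range in that group, whereas the Celrr window, with 0 CpG dinucleotides, has the lowest count possible. Of the 2074 regions, 150 (7.23%) touched the RefSeq promoter window of an lncRNA, which runs from 250 bases before to 50 bases after the start. All are on GRCm38.p6, the assembly of mm10, 5′ to 3′ on the strand of the gene, with CpG dinucleotides in capitals. Chaserr, an lncRNA next to Chd2 that restrains Chd2, has its window at chr7:73558346-73558645 on the minus strand. Dancr is at chr5:74092810-74093109 on the plus strand. Mir9-3hg, the host gene of a miR-9 copy, is at chr7:79499776-79500075 on the plus strand. Cistr is at chr15:102746860-102747159 on the minus strand and Celrr at chr1:121087155-121087454 on the plus strand.
Chaserr: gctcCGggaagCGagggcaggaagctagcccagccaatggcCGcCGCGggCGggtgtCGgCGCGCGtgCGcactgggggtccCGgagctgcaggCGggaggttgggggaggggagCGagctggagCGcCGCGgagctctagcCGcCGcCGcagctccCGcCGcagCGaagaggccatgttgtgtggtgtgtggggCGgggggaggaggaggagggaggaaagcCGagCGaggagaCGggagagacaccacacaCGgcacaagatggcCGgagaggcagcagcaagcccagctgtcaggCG
Dancr: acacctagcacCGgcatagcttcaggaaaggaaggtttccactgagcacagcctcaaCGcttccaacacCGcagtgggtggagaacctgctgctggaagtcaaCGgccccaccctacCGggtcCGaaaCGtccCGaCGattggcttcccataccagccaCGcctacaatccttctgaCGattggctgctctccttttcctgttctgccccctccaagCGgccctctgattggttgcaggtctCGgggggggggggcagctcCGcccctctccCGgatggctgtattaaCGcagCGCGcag
Mir9-3hg: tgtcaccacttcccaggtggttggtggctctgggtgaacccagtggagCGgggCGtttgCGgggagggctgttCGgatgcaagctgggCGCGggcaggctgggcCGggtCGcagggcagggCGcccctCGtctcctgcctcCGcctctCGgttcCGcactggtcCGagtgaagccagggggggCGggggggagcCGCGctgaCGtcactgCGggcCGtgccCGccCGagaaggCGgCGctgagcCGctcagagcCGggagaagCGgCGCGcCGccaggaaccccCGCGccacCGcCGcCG
Cistr: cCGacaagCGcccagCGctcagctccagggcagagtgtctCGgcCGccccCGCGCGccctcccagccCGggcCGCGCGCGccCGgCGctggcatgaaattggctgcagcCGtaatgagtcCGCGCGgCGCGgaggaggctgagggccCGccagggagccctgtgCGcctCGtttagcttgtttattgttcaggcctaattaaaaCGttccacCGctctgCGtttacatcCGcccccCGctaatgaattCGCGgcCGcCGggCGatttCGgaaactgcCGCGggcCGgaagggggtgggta
Celrr: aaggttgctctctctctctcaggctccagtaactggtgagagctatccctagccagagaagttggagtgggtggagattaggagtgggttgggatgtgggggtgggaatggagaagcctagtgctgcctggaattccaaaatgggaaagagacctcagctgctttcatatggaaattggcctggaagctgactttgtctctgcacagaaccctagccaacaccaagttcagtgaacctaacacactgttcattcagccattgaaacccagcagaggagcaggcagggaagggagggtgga
The windows of Cistr, Mir9-3hg and Chaserr held 38, 35 and 30 CpG dinucleotides, that of Dancr held 18, and that of Celrr held 0.

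Of the distal regions, 13 overlapped or lay within 5 kb of a miRNA gene, and RefSeq gave 24 mature miRNAs for these genes with 23 distinct seeds. The miRNAs below belong to the genes that a distal region overlapped (Mir344, Mir344g and Mir1983) and to Mir9-3, 168 bp from one. Seeds, bases 2 to 8, are in capitals.
mmu-miR-344-5p: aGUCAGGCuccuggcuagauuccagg
mmu-miR-344g-5p: aGUCAGGCuccuggcaggagu
mmu-miR-344-3p: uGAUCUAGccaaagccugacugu
mmu-miR-344g-3p: cAGGCUCUagccaggggcuuga
mmu-miR-9-5p: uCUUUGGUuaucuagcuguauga
mmu-miR-9-3p: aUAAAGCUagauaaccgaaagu
mmu-miR-1983: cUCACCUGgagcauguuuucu
The 5p arms of miR-344 and miR-344g were the pair with a shared seed, GUCAGGC. miR-9 is abundant in the developing brain, where it acts on neural progenitors. The nearest coding gene of both miR-344 genes was Ndn, an imprinted gene of neurons.

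Distal regions were the least shared class. Among 18722 merged regions in the distal class, 11.1% (95% Wilson interval 10.6 to 11.5) had a peak in all 4 libraries. The share was 55.4% for regions within 1 kb of a protein-coding gene end, 13.0% for regions inside genes and 15.4% for regions outside but under 10 kb away. Seen from the other side, distal regions made up 33.3% of the regions found in 1 library, 32.5% of those in 2, 27.2% of those in 3 and 14.5% (13.9 to 15.1) of those in all 4. Intervals on shares of regions cover counting error only. The distal share of the peaks in a list was 28.1% and 22.3% in the AAV-GFP libraries and 18.9% and 20.9% in the AAV-Cre libraries. The AAV-GFP lists were also the longer ones, and the part of list length in these shares was not tested.

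The shared distal regions were narrower and weaker than the shared regions at gene ends. Their median width was 500 bp, with a 10th to 90th percentile range of 321 to 834 bp and extremes of 142 and 3631 bp, against a median of 720 bp at gene ends and 522 bp inside genes. Together they covered 1151 kb. Median fold enrichment of the distal regions was 8.75 and 7.54 in the AAV-GFP libraries and 6.28 and 6.65 in the AAV-Cre libraries. At gene ends it was 9.79, 8.75, 7.003 and 7.22 in the same order, higher in each of the 4 libraries. Median −log10 p of the distal regions was 19.9, 14.5, 10.2 and 11.3, against 30.2, 21.5, 13.1 and 14.2 at gene ends. The order of distal and intragenic regions depended on the measure. Median fold inside genes was 7.70, 7.04, 6.11 and 6.32, below the distal value in every library, whereas their median −log10 p, at 19.1, 14.4, 10.2 and 11.1, was close to it.

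**Figure D1:**
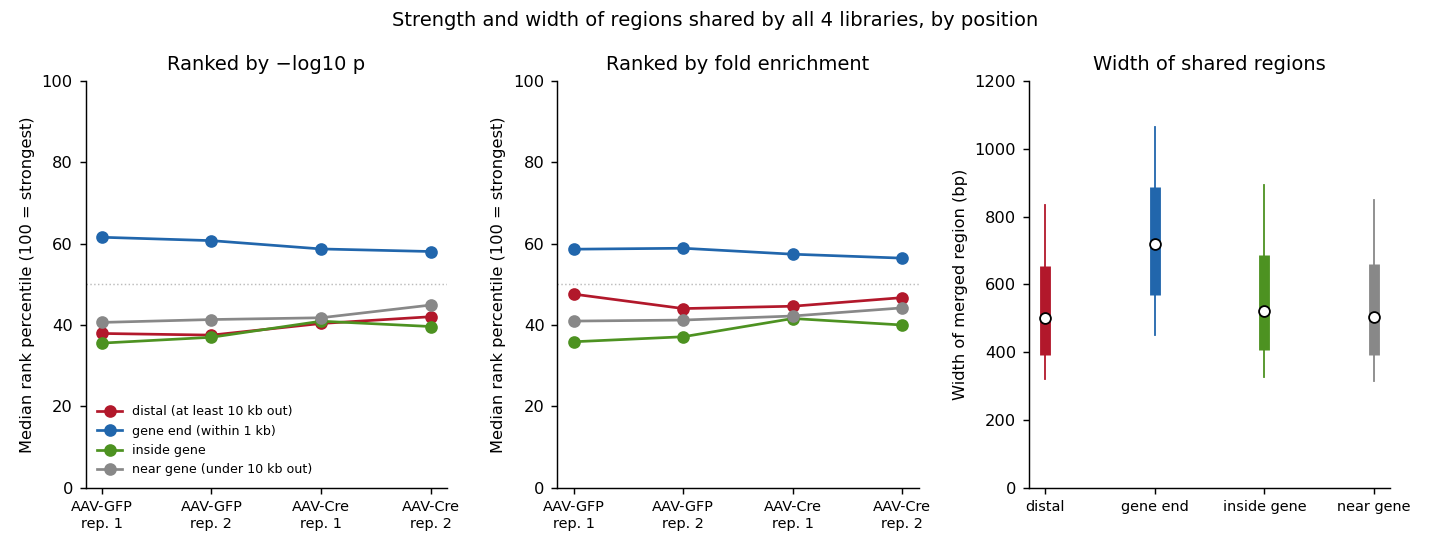
Median rank percentile of each position class in each library by −log10 p (left) and by fold enrichment (middle), and width in bp (right; circle, median; thick line, interquartile range; thin line, 10th to 90th percentile). Distal regions sat at 37.5 to 42.0 by −log10 p and at 44.1 to 47.6 by fold, below the gene-end class in all 4 libraries.

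The place of the summit varied between libraries about as much as in the larger classes. The summits of the strongest peaks of a distal region spanned a median of 104 bp over the 4 libraries, and in 17.9% of regions they lay within 50 bp of each other. Gene ends gave 104 bp and 18.04%, and regions outside but under 10 kb from a gene 87.5 bp and 24.0%. Inside genes the share was 17.9%. The median gap between summits was 43 bp for the AAV-GFP pair and 55 bp for the AAV-Cre pair. The authors' deposited lists on pooled groups held 2074 of the 2074 regions for AAV-GFP and 2066 for AAV-Cre, with median pool folds of 9.44 and 7.71. The other 8 regions had a peak in both AAV-Cre libraries but not in their pool.

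Most distal regions lay within 100 kb of a coding gene. The median distance to the nearest gene body was 47.0 kb, with an interquartile range of 23.2 to 113 kb, and 49 regions (2.36%) were more than 500 kb away. Strength did not change steadily with distance. From 10 to 25 kb the median rank was 39.3 and 39.5 in the AAV-GFP libraries and 44.5 and 45.3 in the AAV-Cre libraries. From 100 to 250 kb it was 31.5, 34.9, 35.1 and 37.4, and from 250 to 500 kb 38.7, 33.8, 42.1 and 44.7. The farthest region, near Pik3c3, a lipid kinase of endosomes and autophagy, was 2187 kb from any coding gene on chromosome 18 and ranked 82.0, 78.1, 83.5 and 87.6. Just inside the limit lay regions 10003 bp or slightly more from Siah3 and Ap2s1, and just outside it regions 9994 bp from Rnf7 and 9972 bp from Rhbdl3. The region near Siah3 ranked 78.8, 84.1, 69.0 and 69.9, and the one near Rnf7 ranked 28.1, 19.4, 18.03 and 15.5. By chromosome, the distal share of shared regions ran from 8.35% on chromosome 19 to 21.5% on chromosome 12.

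**Figure D2:**
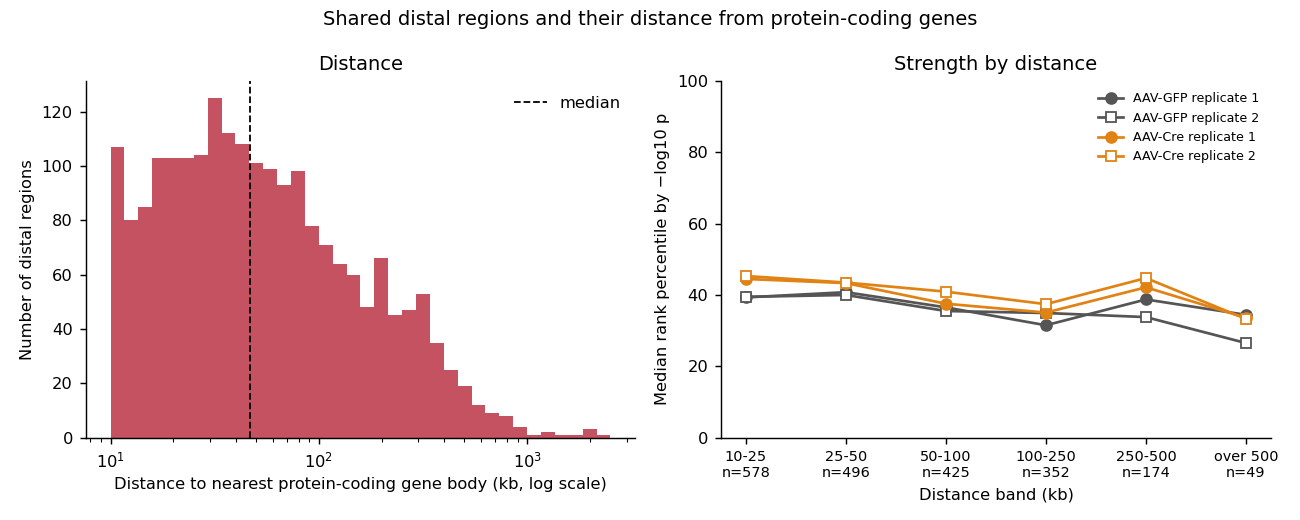
Left, number of shared distal regions by distance to the nearest protein-coding gene body (kb, log scale; dashed line, median of 47.0 kb). Right, median rank percentile by −log10 p in each library for 6 distance bands, where the 49 regions over 500 kb away sit between 26.5 and 34.4.

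The strongest distal regions are described by the 25 with the highest mean rank over the 4 libraries. This choice puts every rank near the top of the scale and so fixes their shifts to be small, at most 0.813 percentile points. The first, at chr14:124801558-124802238 and 124 kb from Fgf14, a modulator of neuronal sodium channels, had folds of 62.4 and 44.7 in the AAV-GFP libraries and 46.4 and 42.7 in the AAV-Cre libraries. The second, 16.9 kb from Mrgprd, a receptor of sensory neurons, had 56.8, 45.7, 45.4 and 40.4. A region near Csf2ra, a cytokine receptor subunit, had 60.4, 49.8, 52.6 and 49.4. All 3 lay beyond the outermost coding gene of their chromosome, as did 11 of the 25. Over all distal regions 23 lay there, with median ranks of 98.6, 97.3, 99.8 and 99.7. The regions near Myl12b, Tcte2, Zfp825, Gm14496, Galc, Cr2 and B230307C23Rik complete the 10 strongest.

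High rank did not always go with high fold. Among the 25 strongest, 14 had a fold of at least 20 in all 4 libraries and 7 had a fold under 10 in all 4. Of 6 regions at the start of chromosome 9, from 3009268 to 3034030 and nearest to Alkbh8, a tRNA-modifying enzyme, 5 ranked above 96 in every library with folds of only 3.12 to 6.14. Another Alkbh8 region, at chr9:3258590-3258947, had folds of 44.8, 33.9, 33.5 and 28.1. Start and end regions of mouse chromosomes are rich in repeated DNA, as background. No list of excluded regions is named in the sources used here, and whether reads from repeats account for these values was not tested.

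Between the groups, distal regions ranked slightly higher after AAV-Cre by −log10 p and not by fold. The median shift by −log10 p was 2.43 points, with an interquartile range of −9.13 to 14.1, against 0.014 over all shared regions. Median ranks were 37.9 and 37.5 in the AAV-GFP libraries and 40.4 and 42.0 in the AAV-Cre libraries, so the groups did not overlap. By fold the median shift was 0.0279 against 0.419 over all shared regions, and the median ranks of 47.6, 44.1, 44.6 and 46.7 overlapped. Regions inside genes shifted by 2.14 on −log10 p and by 2.88 on fold, and gene ends by −1.12 and −0.39. For distal regions the median signed difference, replicate 1 minus replicate 2, was 0.0279 points in the AAV-GFP libraries and −0.857 in the AAV-Cre libraries. Single distal regions varied more. The absolute shift had a median of 11.8 points. The absolute difference within a group had a median of 10.8 points for AAV-GFP and 14.6 points for AAV-Cre. The median distal shift of 2.43 became 1.31 when each list was reduced to the same number of peaks, and 1.00 without AAV-Cre replicate 2.

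For distal regions the 2 directions were unequal by one measure. Every member needed a peak in both AAV-Cre lists, which were the shorter ones. The part of this requirement in the shift and in the unequal calls was not tested. By −log10 p, 542 distal regions (26.1%, 24.3 to 28.1) were stronger in both AAV-Cre libraries, against 19.7% of all shared regions. Another 346 (16.7%, 15.1 to 18.3) were weaker, again against 19.7%. By fold, 438 (21.1%) were stronger against 20.0%, and 408 (19.7%) were weaker against 19%, both near the background. Regions inside genes also leaned to the stronger side, with 23.8% stronger and 15.8% weaker by −log10 p and 23.0% and 15.5% by fold. Regions outside but under 10 kb away had 20.7% and 14.4% by −log10 p, and gene ends had 16.0% and 22.9%. Of the weaker distal calls, 319 were made by both measures, 92.2% of those by −log10 p and 78.2% of those by fold. Of the stronger calls, 414 were made by both, 76.4% and 94.5%. Opposite calls were made for 4 regions. With lists of equal length, 23.5% of distal regions were stronger by −log10 p, against 19.2% of all shared regions. Another 16.7% were weaker, against 19.7%. Leaving out any 1 of the 4 libraries instead raised the 346 weaker and 542 stronger calls by over 1.5 times, to 570 to 1027 and 842 to 1306. Fewer libraries make an overlap less likely, and the distal set also grew, to 2112 to 3140 regions. The weaker share was then 26.99% to 34.6%, against 32.2% to 36.7% of all shared regions. The stronger share was 39.3% to 41.6%, against 31.9% to 37.01%. The shift by −log10 p was above 0 in each of 5 bands of mean rank, at 3.01, 4.05, 1.57, 1.25 and 0.77 from the weakest band to the strongest, while by fold it was 0.80, 0.36, −1.90, −1.78 and 0.41.

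**Figure D3:**
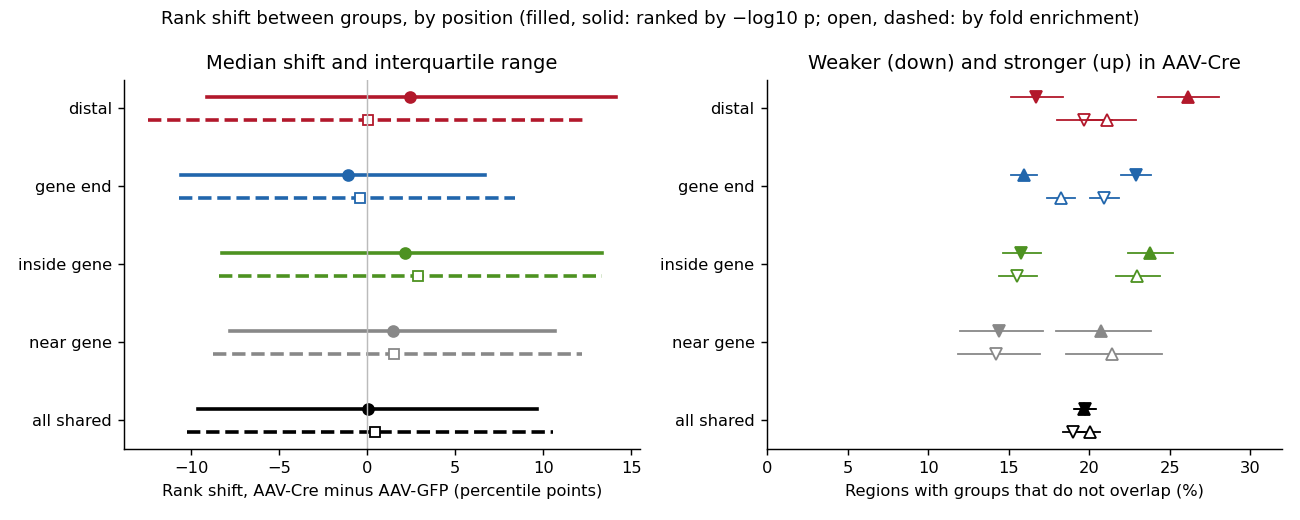
Left, median rank shift (AAV-Cre minus AAV-GFP, percentile points) and interquartile range for each position class under both rankings. Right, percent of regions weaker (down) or stronger (up) in both AAV-Cre libraries with 95% Wilson intervals; distal regions were stronger in 26.1% and weaker in 16.7% by −log10 p, and in 21.1% and 19.7% by fold.

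Distal regions also had the lowest correlation of strength between libraries of the 4 classes, for each pair of libraries. Across the 2074 regions, Spearman's rank correlation of −log10 p was 0.736 for the AAV-GFP pair, 0.587 for the AAV-Cre pair and 0.535 to 0.574 between groups. Across gene ends it was 0.830, 0.761 and 0.741 to 0.797. The other classes lay closer to the distal values. Regions inside genes had 0.756, 0.602 and 0.598 to 0.643, and regions outside but under 10 kb away had 0.740, 0.625 and 0.606 to 0.661. These are descriptions across regions, which share libraries and their depth. The plot of mean ranks shows how widely single regions scattered around the diagonal.

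**Figure D4:**
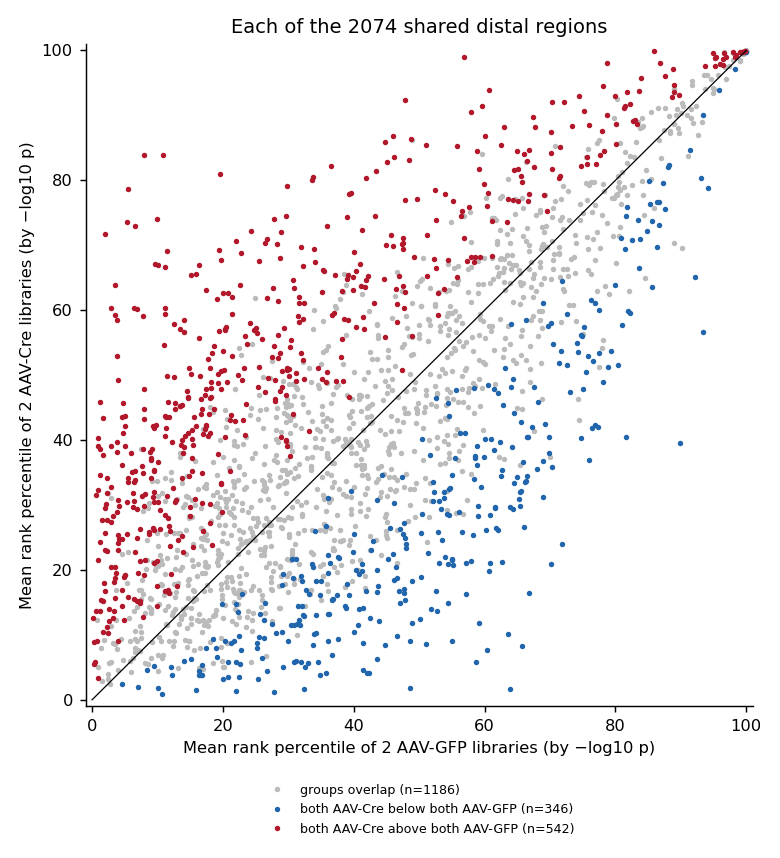
Mean rank percentile by −log10 p in the 2 AAV-GFP libraries (horizontal) and in the 2 AAV-Cre libraries (vertical), 1 point for each shared distal region. Regions called weaker (346) and stronger (542) lie to either side of the line of equal ranks.

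The region with the largest shift down was close to Gad2, which encodes a GABA-synthesising enzyme of inhibitory neurons. It lay at chr2:22721695-22722290, 27.8 kb from the gene, and had folds of 13.3 and 9.73 in the AAV-GFP libraries and 4.17 and 3.95 in the AAV-Cre libraries. Its ranks went from 69.9 and 57.9 to 2.12 and 1.12, a shift of −62.3. Both AAV-Cre values were low and the groups did not overlap. A region 14.9 kb from Ntrk3, the receptor of neurotrophin-3, followed at chr7:78595923-78596171 with folds of 15.3, 11.2, 4.60 and 4.98. Next came regions near Pkdcc, a secreted tyrosine kinase, with folds of 11.4, 12.5, 4.31 and 5.19, and near Vav3, a guanine nucleotide exchange factor, with 11.8, 11.01, 4.31 and 4.97. In all of these the AAV-Cre libraries lay together at the bottom of the range.

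In some of the other weakened regions the AAV-Cre libraries differed from each other. Near Nmur2, a neuromedin U receptor known in the PVH for its part in feeding, the region at chr11:56246890-56247573 had folds of 15.7 and 15.8 in the AAV-GFP libraries, then 4.40 and 8.87. Its ranks were 88.9, 91.0, 6.08 and 73.0, so 1 AAV-Cre library made most of the shift of −50.4. The region near Ppp2r3a, a regulatory subunit of protein phosphatase 2A, ranked 64.2, 76.0, 5.75 and 36.2. The region 472 kb from Myc, a transcription factor of cell growth, ranked 51.7, 66.5, 18.03 and 5.78. Its AAV-Cre libraries lay closer together than those of the regions near Nmur2 and Ppp2r3a. Regions near Sucla2, Plet1 and Trim43a complete the 10, and the one near Trim43a touched the promoter window of the lncRNA Gm26567. All 10 were weaker by fold too, with fold shifts from −72.7 to −46.8.

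Both ends of the list of shifts were chosen for their size, so their values are a description. The region with the largest shift up lay 224 kb from Bmp4, a bone morphogenetic protein ligand, at chr14:46158832-46159190. Its folds were 6.52 and 5.29 in the AAV-GFP libraries and 10.50 and 11.4 in the AAV-Cre libraries, and its ranks 9.66, 6.34, 83.8 and 84.1. The region 275 kb from Gdf6, another ligand of that family, had folds of 5.13, 4.23, 8.40 and 10.2. The region 122 kb from Fstl4, a follistatin-like protein, had 7.67, 4.76, 10.1 and 10.8. In each, both AAV-Cre values exceeded both AAV-GFP values.

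The rest of the strengthened regions followed the same pattern. The region near Sulf1, which trims sulfate from heparan sulfate outside cells, had folds of 5.13, 5.82, 8.87 and 10.50. The region near Ift81, a protein of ciliary transport, ranked 10.4, 0.206, 72.2 and 75.1. The region near B3gat1, an enzyme that makes the HNK-1 carbohydrate of neural cells, ranked 0.576, 6.34, 60.6 and 67.1, and the one near Sybu, a kinesin adaptor of axons, 20.0, 3.08, 68.4 and 69.9. Regions near Spata19, Tpra1 and Gm51791 complete the 10. Weak peaks of a library often carried tied values, as in the second AAV-GFP library, where the regions near Bmp4, Spata19 and B3gat1 all had a fold of 5.29.

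**Figure D5:**
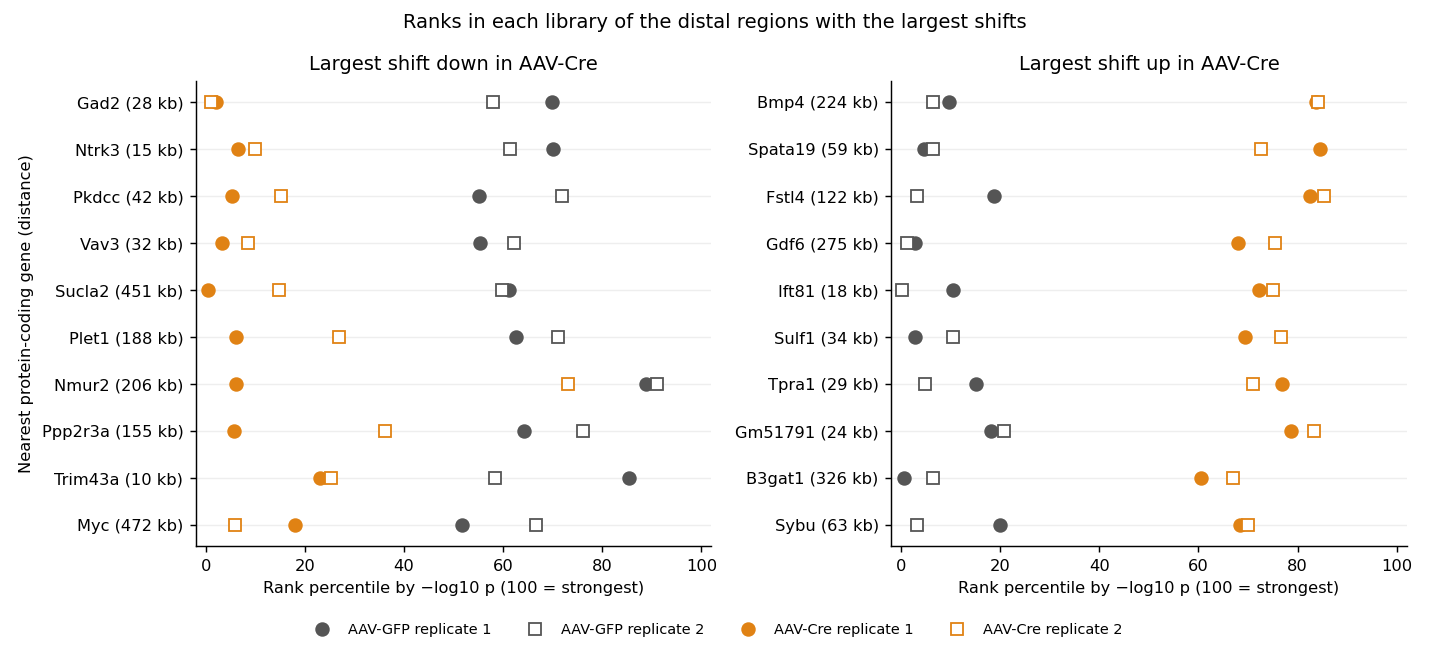
Rank percentile by −log10 p in each library of the 10 distal regions with the largest shift down (left) and up (right), labelled by the nearest protein-coding gene and its distance in kb. The region near Gad2 ranked 69.9 and 57.9 in AAV-GFP and 2.12 and 1.12 in AAV-Cre, and the region near Bmp4 ranked 9.66 and 6.34, then 83.8 and 84.1.

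The 2074 regions had 1463 nearest genes, 7.08% of 20665 autosomal protein-coding genes, and 1083 of these genes had 1 region. Counts of calls for single genes and lists below are read against 16.7% weaker and 26.1% stronger over all distal regions, and each rests on few regions. Zfp608, a zinc finger gene of chromosome 18 with long gene-free flanks, had the most, 11 regions from 48.0 to 632 kb away, of which 3 were weaker and 0 stronger. Hrh1, the histamine H1 receptor gene, had 9 over a span of 64.3 kb, of which 4 were weaker and 0 stronger, with a median shift of −9.59. Zmiz1, a coactivator of transcription, had 7, of which 5 were weaker and 1 stronger, with a median shift of −13.4. Ubash3b and Alkbh8 had 7 each, and Cstad, Mkln1 and Rps24 had 6 each. Of the 6 at Cstad 3 were weaker and 0 stronger. The next, with 5 regions each, were Bod1, Camk1g, Cyria, Gadd45g, Gm21119, Gm4791 and Id4. Neighbouring regions of a gene share sequence context and are not replicates.

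Some loci held runs of distal regions. With a gap of at most 50 kb allowed between neighbours, 1352 regions (65.2%) stood alone and 16 runs had 5 or more members. The longest, 10 regions over 108 kb between Atg7 and Hrh1, had 4 weaker and 0 stronger members. Its strongest Hrh1 members by rank had folds of 8.46, 9.50, 6.28 and 6.39 at chr6:114553107-114553356 and 7.97, 10.8, 6.04 and 6.84 at chr6:114547990-114548339. A run of 5 on chromosome 8 nearest to Gm21119 had 4 stronger and 0 weaker members, with regions up to 2348 bp wide. A run of 5 over 11.7 kb at Snurf, in the imprinted Prader-Willi domain, had 3 stronger and 0 weaker.

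None of 9 genes that mark the PVH or its peptides (Otp, Mc4r, Sim1, Crh, Trh, Avp, Oxt, Sst and Pou3f2) was the nearest coding gene of a shared distal region. With 7.08% of all coding genes nearest to one, 0 of 9 is near the background. The distal region closest to Otp was 534 kb away, near Crhbp, with ranks of 56.8, 69.2, 70.9 and 57.7. The one closest to Mc4r, the melanocortin receptor of the PVH, was 418 kb away, near Impa2, with ranks of 9.33 and 18.7 in the AAV-GFP libraries and 65.0 and 52.0 in the AAV-Cre libraries. Sst, the somatostatin gene, had one 62.0 kb away, near Bcl6, with ranks of 4.69, 1.10, 1.82 and 21.1. Crh, the corticotropin-releasing hormone gene, had one 64.1 kb away that overlapped a tRNA gene near Trim55, with ranks of 82.3, 85.9, 81.6 and 94.9.

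Of 50 autosomal transcription factor genes of neuronal and glial fate, 18 were nearest to at least 1 distal region, with 30 regions in all, against 7.08% of all coding genes. Of the 30, 7 were weaker and 7 stronger, against 16.7% and 26.1% of all distal regions, and the median shift was 0.31 against 2.43 over all distal regions. Genes of this kind often lie in wide gene-free stretches, and the part of gene spacing in the count was not tested. Id4, an inhibitor of basic helix-loop-helix factors, had 5 regions and Myt1l, a neuronal zinc finger factor, had 4. One of the Myt1l regions, at chr12:29290683-29291434, was among the stronger sites in every library, with folds of 16.7, 19.1, 12.8 and 13.4. The region 306 kb from Nr4a2, a nuclear receptor of neurons, had folds of 5.59 and 4.23 in the AAV-GFP libraries, then 7.54 and 6.08 in those of AAV-Cre. Sox11, a factor of immature neurons, had regions called in both directions.

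The other neuronal lists rested on 3 to 6 regions each, read against the same shares of calls. Of 44 PVH lineage transcription factor genes, 3 (6.82%, against 7.08% of all coding genes) had distal regions (Ebf2 with 3, Dlx2 and Onecut3), of which 0 were weaker and 1 was stronger. Of 20 peptide and hormone genes, 2 (10%) had distal regions, Cartpt, an appetite-regulating peptide, with 2 and Scg2 with 1. The Cartpt region 83.3 kb away was weaker by either measure, with ranks of 34.8, 37.3, 32.4 and 12.1. The Scg2 region was stronger by −log10 p and not by fold, with ranks of 43.1, 50.8, 51.5 and 78.9. Of 20 melanocortin and energy balance genes, 4 (20%) had 6 regions together, of which 1 was weaker and 2 were stronger. The weaker one lay 28.2 kb from Mrap2, an accessory protein of the melanocortin receptor, with folds of 10.05, 7.07, 5.65 and 5.54. The stronger ones lay near Pcsk2, a prohormone convertase, with ranks of 24.9, 18.02, 62.4 and 43.4, and near Ntrk2, the receptor of brain-derived neurotrophic factor, with ranks of 1.204, 3.39, 33.7 and 21.8. Of 52 adhesion and guidance genes, 5 (9.62%) had 6 regions, of which 1 was weaker and 2 were stronger. The weaker one lay 58.0 kb from Robo1, a receptor of axon guidance, with folds of 13.0 and 9.70 in the AAV-GFP libraries and 4.85 and 4.97 in the AAV-Cre libraries. Of 24 activity-regulated genes, 4 (16.7%) had 5 regions, of which 0 were weaker and 1 was stronger. The stronger one lay 13.8 kb from Btg2, with ranks of 81.2, 76.1, 91.7 and 88.6.

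Distal regions were nearest to 2 of 14 astrocyte, 1 of 16 oligodendrocyte and 2 of 12 microglia genes, that is 14.3%, 6.25% and 16.7%, against 7.08% of all coding genes. Together these lists had 7 regions, and their calls stand beside 26.1% stronger and 16.7% weaker over all distal regions. The 2 regions of the astrocyte list lay near Fgfr3, a growth factor receptor, with ranks of 21.1, 11.9, 49.4 and 50.5, and near Aqp4, the water channel of astrocytes, with ranks of 12.3, 12.5, 29.2 and 35.9. The oligodendrocyte list also had 2, both near the myelin gene Mobp, of which the nearer ranked 18.1 and 2.03 in the AAV-GFP libraries and 57.6 and 76.2 in the AAV-Cre libraries. The farther Mobp region was stronger by −log10 p and not by fold. The microglia list had 3, of which 2 were stronger. One lay 10.8 kb from Cx3cr1, the fractalkine receptor, with ranks of 6.90, 15.4, 75.1 and 45.5, and another near Mef2c, a factor that neurons use too, with ranks of 95.3, 96.5, 98.3 and 97.6. Mef2c was also in the list of neuronal and glial fate genes, so its regions were counted in both lists. No region of these 3 lists was weaker. The list of neuronal and glial fate genes had 7 weaker and 7 stronger regions of 30. Its weaker ones included the region near Sox9, with ranks of 47.5, 32.5, 14.0 and 31.4. The region near Zbtb20, with ranks of 63.1, 46.0, 42.0 and 45.4, was another. Both were weaker by fold too. The endothelial and mural list had 3, of which 1, near Cdh5, was weaker and 1, near Erg, was stronger. At gene ends, 5 of 14 astrocyte, 1 of 16 oligodendrocyte, 1 of 12 microglia and 0 of 15 endothelial and mural genes had a region shared by all 4 libraries, against 42.8% of all coding genes. The part of cell makeup in the shifts was not tested.

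Strength was also summarised by noncoding annotation. The 150 regions on lncRNA promoters had a median width of 622 bp and median ranks of 51.6, 49.1, 45.9 and 46.4, above the ranks of all distal regions in each library. Of them 33 (22.0%) were weaker and 24 (16.0%) stronger, against 16.7% and 26.1% of all distal regions. Their median shift was −1.23 by −log10 p and −1.79 by fold. Another 448 overlapped an lncRNA gene away from its promoter, with ranks of 37.7, 38.7, 40.2 and 39.2. The 1413 regions that overlapped no annotated gene had a median width of 485 bp and ranks of 36.2, 36.3, 39.8 and 42.0, with a median shift of 3.01 by −log10 p and 0.19 by fold. The difference between these classes was not tested.

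Among the promoters printed above, that of Chaserr had the highest mean rank over the 4 libraries, although Dancr exceeded it in AAV-GFP replicate 1. Its region had folds of 14.8 and 16.5 in the AAV-GFP libraries and 12.0 and 11.5 after AAV-Cre, and ranks of 94.7, 97.0, 94.2 and 93.7. It was weaker by −log10 p, with a shift of −1.91, and not by fold, with a shift of 0.47. The region on Dancr had folds of 21.2 and 15.001, then 9.47 and 9.80, and ranks of 97.6, 90.6, 81.5 and 76.1. Both AAV-Cre values were lower by either measure. The region on Mir9-3hg had folds of 5.55, 5.40, 4.41 and 4.33 and ranks of 28.2, 33.2, 21.5 and 16.1. The region on Cistr ranked 29.6 and 55.1 in the AAV-GFP libraries and 3.90 and 4.49 in the AAV-Cre libraries. The region on Celrr, whose window had no CpG, ranked 5.40, 47.9, 49.0 and 40.6, with overlapping groups.

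The lncRNA promoters under distal regions lay between all lncRNA promoters and coding promoters in base composition. The 183 windows of 157 lncRNA genes had a median GC content of 54.3% and a median of 9 CpG dinucleotides. All 11285 autosomal lncRNA windows had 48.3% and 4, and 19946 protein-coding windows had 57.0% and 14. Over all promoter windows the medians were 53.0% and 7. The GC box GGGCGG stood on either strand in 38.3% of the windows under distal regions, against 16.3% of all lncRNA windows, 47.2% of coding windows and 36.1% of all promoter windows. The ETS motif CCGGAAG stood in 10.9%, 3.92%, 11.9% and 9.03% in that order. The homeodomain motif TAATTA stood in 2.73%, 6.68%, 4.49% and 5.28%, and the Cistr window printed above holds 1 copy. The AP-1 motif TGANTCA stood in 5.46%, 9.25%, 7.02% and 7.83%, and the E-box CAGCTG in 14.8%, 17.6%, 15.7% and 16.4%. A match describes letters in a window and is not a bound site.

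Regions at small RNA genes varied. The 21 regions on tRNA genes had a median width of 772 bp and median ranks of 47.6, 56.6, 71.2 and 51.2, and 4 (19.05%) were weaker and 8 (38.1%) stronger, against 16.7% and 26.1% of all distal regions. A region on tRNA sequence near Slc47a1 ranked 30.9, 61.4, 83.7 and 83.3, and one near Uspl1 ranked 93.5, 94.0, 98.4 and 96.8. Copies of tRNA genes are near-identical, so reads there can be placed on more than 1 copy, and no source used here says how such reads were treated. Of 11 regions on snRNA genes, also repeated in the genome, 7 (63.6%) were stronger and 0 weaker, with a median shift of 15.1, against the same shares. Of the 13 regions at miRNA genes, 2 (15.4%) were weaker and 4 (30.8%) stronger, both near the shares over all distal regions.

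The region beside Mir9-3, at chr7:79504648-79505096, had folds of 7.90 and 7.98 in the AAV-GFP libraries and 4.64 and 5.56 after AAV-Cre, and ranks of 53.0, 59.0, 20.1 and 37.7. It was weaker by either measure, as was the region on the promoter of its host gene. The region on Mir344 ranked 40.9, 29.5, 76.9 and 48.7 and was stronger, while the region on Mir344g ranked 24.7, 18.6, 9.64 and 20.5, with overlapping groups. The region on Mir1983 also covered a tRNA gene and ranked 81.5, 88.8, 78.7 and 81.0. A region 1575 bp from Mir3072, beyond Rtl1 in an imprinted cluster of chromosome 12, ranked 79.7, 88.0, 94.6 and 96.9. Regions at miRNA genes therefore included calls in both directions.

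The widest distal regions gave different shifts by the 2 measures. The widest, 3631 bp near Smgc, had folds of 7.38, 7.93, 8.04 and 7.90, and its shift was 46.8 points by −log10 p and 27.8 by fold. The next 3, near 9530057J20Rik, Nup35 and Lama2, had shifts of 24.5, 24.0 and 26.3 by −log10 p and of 5.36, 8.62 and 9.65 by fold. The region near Tcte2, the fifth by width at 2484 bp, was also among the 10 strongest and had folds of 19.7, 16.9, 16.7 and 17.0.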

How the data were processed

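ATAC-seq peak lists of 2 AAV-GFP and 2 AAV-Cre libraries and of their 2 pooled groups were used. The tools that the submitters' processing notes name are Bowtie2, MACS2, Trim Galore and FastQC, with the mm10 build; no source used here gives their versions, the read filters or the treatment of repeats. The deposited lists give each peak's fold enrichment, a ratio of signal to background made by the authors. They also give the authors' −log10 p and −log10 q for each peak, and an integer score. Starts, ends and summits are deposited in bp, written here 1-based. The lowest deposited −log10 q was 1.30 to 1.31. Depth is unknown, so no interval on a single peak is given. List length can move with depth.

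Peaks were merged, annotated with a RefSeq gene table of GRCm38.p6 and ranked with Python 3.11.15, pandas 2.3.3, NumPy 2.4.6 and SciPy 1.17.1; figures were drawn with matplotlib 3.10.9. Chromosomes X and Y were left out. The merging, ranking and calls were checked on simulated data. Replicate numbers were not taken as pairs, since same-numbered deviations correlated at −0.0173 over all shared regions and −0.00936 over distal regions. Named regions were the 10 strongest, the 10 with the largest shift in each direction, the 5 farthest, the 5 widest, those at the distance limit and those within 5 kb of a miRNA gene. Named genes were the 15 nearest to most regions and members of 10 gene lists with 272 entries. The members and lists were chosen with earlier results of these data known. The planned motif counts under peaks needed a genome, which was not used here; RefSeq promoter windows and miRNAs took their place. Alternatives changed the distance, overlap, peak threshold, list length, strength measure, ranked set, replicate block and libraries.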

Additional observations from a re-analysis of the deposited data

How the results depend on the processing

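The number of distal regions was 2074 as reported, 959 when every annotated gene counted as a gene, and 1165 when peaks needed a −log10 q of at least 5. Leaving out 1 library gave 2112 to 3140, the highest without AAV-Cre replicate 1. The distal share of shared regions, 14.5%, became 10.4% with a minimum distance of 25 kb, 16.9% with 5 kb, 6.69% against every annotated gene, 13.1% with lists of equal length and 12.1% with the stricter q. It ran from 14.5% to 17.3% with 1 library left out. Median width, 500 bp, was 482 bp against every annotated gene, 522 bp with the stricter q and 451.5 to 457 bp with 1 library left out. Counting more genes, or using fewer peaks or libraries, changes the set by construction.

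The median shift of 2.43 points was 1.31 with lists of equal length, 0.0279 ranked by fold, 0.190 by summed fold times width, and −0.0964 ranked among distal regions alone, where the median lies near 0 by construction. With 1 library left out it was 1.00 to 2.73, the lowest without AAV-Cre replicate 2. For the other settings the cause was not tested. Weaker regions numbered 346 and stronger regions 542. With the stricter q they numbered 174 (14.9%) and 315 (27.04%) of 1165 distal regions, against 19.7% and 19.7% of all shared regions. With 1 library left out they numbered 570 to 1027 and 842 to 1306. Fewer libraries make groups less likely to overlap, and these sets also held more distal regions, 2112 to 3140. Over all shared regions the shares were then 32.2% to 36.7% weaker and 31.9% to 37.01% stronger. Each of the 4 libraries, left out, raised both counts by more than 1.5 times. Without AAV-Cre replicate 2 the stronger share was 40.6% against 37.01% of all shared regions, and the weaker share 34.6% against 36.7%. With lists of equal length they were 23.5% against 19.2% and 16.7% against 19.7%. With the replicate number as a block, the median shift was 2.43. In both same-numbered comparisons 463 distal regions (22.3%) were weaker and 699 (33.7%) stronger, against 27.2% and 27.3% of all shared regions. After the data were seen, lncRNA promoters and tRNA genes were left out, giving a shift of 2.80, and so were the regions beyond the outermost coding gene, giving 2.46 with 345 weaker and 531 stronger.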
